A study of Homo sapiens with 12 samples.

Results

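Matrix metalloproteinases (MMPs) and tissue inhibitors of metalloproteinases (TIMPs) were followed in human proximal tubular cells (HPTCs) under IL-1β and empagliflozin (Empa). The genes were MMP1, MMP2, MMP3, MMP7, MMP9, MMP10, MMP13, MMP14, TIMP1 and TIMP3. They were found by gene name among the non-control probes of the array, and each of the 10 genes has 1 probe among 34127 probes. RNA was hybridized to 12 one-color Agilent arrays. By the sample titles the cells were HK-2, a proximal tubular line immortalized with papillomavirus genes, and RPTEC/TERT1, a line immortalized with telomerase, both grown at normal glucose. All groups were starved of serum and supplements for 24 h, and the controls then received no ligand, while the treated cells received IL-1β (10 ng/mL), a pro-inflammatory cytokine, or Empa (500 nM), an inhibitor of the glucose cotransporter SGLT2, for 24 h. Each line and treatment has 2 arrays, which are biological duplicates per the methods. The arrays lie on 4 slides, and each slide carries all 3 conditions for 1 line label and replicate number, so that every treated array was compared with the control array beside it.

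MMPs are zinc-dependent endopeptidases, made as inactive proenzymes, that cut collagens, gelatin, proteoglycans and many soluble or membrane proteins. TIMPs bind the active site of these enzymes and block it, so matrix turnover depends on the levels of both families. In the kidney, the balance between them is studied in tubular injury, in the breakdown of tubular basement membrane and in interstitial fibrosis. MMP7 (matrilysin) is known as a product of injured tubular epithelium. Transcription of several MMP genes, among them MMP1, depends on AP-1, the dimer of FOS and JUN family proteins, and the binding sequence of AP-1 lies close to the start of transcription in these genes.

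The line labels come from the sample titles, while the source field gives HK-2 for every array, so which line a slide holds is not settled. The arrays do not group by the labels of the titles. Pearson's r between control arrays, over the 15324 probes that every array measured well above background, was 0.984 for HK-2 replicate 1 with RPTEC/TERT1 replicate 2. It was 0.973 for HK-2 replicate 2 with RPTEC/TERT1 replicate 1, but 0.880 between the HK-2 controls and 0.875 between the RPTEC/TERT1 controls. These are descriptions across probes. The slides are therefore named by their labels only, and the main comparison takes each treatment over the 4 slides without use of the line. The 75th percentile of the background-subtracted signal lay between 295 and 735 units, 53.5% to 63.8% of all probes exceeded background clearly by the software's mark, and 7 to 214 were saturated. Of 12 proximal tubule markers, 7 were well above background on all 12 arrays, among them SLC5A2, which encodes SGLT2, and 2 (SLC5A1 and SLC22A6) on none. Of 5 epithelial markers 4 were well above background on all 12 arrays, as were 1 of 6 distal nephron markers (UMOD), 0 of 7 fibroblast markers, 1 of 5 endothelial markers (CDH5) and 2 of 6 leukocyte markers (PTPRC and CD68). The part of other cell types in the results was not tested, and in a bulk sample fewer cells of a type and less RNA per cell cannot be told apart. Of 7 tested genes known to respond to IL-1β, 6 rose, among them IL6 (6.96 on the log2 scale) and CXCL8 (7.03), while ICAM1 missed it (2.13, adjusted p = 0.0507 by limma).

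The probes of the genes whose results are described at length are shown to say which part of the transcript each signal reports. Positions are those of hg19 in the array annotation, written 5' to 3' on the strand of the transcript. The exon or untranslated region is not given in that annotation. The MMP1 probe lies at chr11:102660697-102660756 and the MMP7 probe at chr11:102394029-102394088, both on the minus strand. The MMP14 probe lies at chr14:23315791-23315850 and the TIMP1 probe at chrX:47444666-47444725, both on the plus strand. For MMP1 and MMP14 the first 30 of 60 bases are shown.
MMP1: acatgtgcagtcactggtgtcaccctggat
MMP7: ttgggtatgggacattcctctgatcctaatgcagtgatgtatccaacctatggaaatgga
MMP14: ggactgccaagccaccctaagaccttggga
TIMP1: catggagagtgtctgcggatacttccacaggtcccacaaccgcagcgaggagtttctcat
The probes of MMP1, MMP3, MMP7, MMP10 and MMP13 all lie on the minus strand of chromosome 11, within 419.8 kb, where these genes form a cluster. The probes of MMP2 (chr16:55540518-55540577), MMP9 (chr20:44645121-44645180) and TIMP3 (chr22:33258540-33258599) lie elsewhere.

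RefSeq promoter windows (GRCh38.p14) were at hand for MMP7, MMP10, MMP14, TIMP1 and TIMP3. The AP-1 motif was searched as TGANTCA on both strands in the 250 bases before each start, and capitals mark it in the last 110 of them. MMP7 (chr11:102530748-102530857, minus strand) and MMP10 (chr11:102780629-102780738, minus strand), which lie in the cluster, are shown because they hold it. TIMP1 (chrX:47582326-47582435, plus strand) is shown as a window without an exact match.
MMP7: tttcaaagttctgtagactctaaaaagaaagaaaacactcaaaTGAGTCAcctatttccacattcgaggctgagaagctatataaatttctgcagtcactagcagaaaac
MMP10: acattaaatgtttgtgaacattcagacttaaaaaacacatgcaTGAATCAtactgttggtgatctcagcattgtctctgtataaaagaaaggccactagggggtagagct
TIMP1: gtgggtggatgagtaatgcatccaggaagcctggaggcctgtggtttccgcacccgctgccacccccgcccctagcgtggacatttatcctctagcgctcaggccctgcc
In MMP7 and MMP10 the motif spans the bases 67 to 61 before the start in each, and a TATA box (TATAAA) lies at bases 30 to 25 and 31 to 26. The 250-base windows of MMP14, TIMP1 and TIMP3 hold no exact match to the AP-1 letters. Near matches were not searched, and the TIMP1 window shown holds one (TGAGTAA). A κB motif (GGGRNWYYCC) and an ETS motif (GGAAGT) were searched in the same way. None of the 5 windows held the κB motif, and MMP7 alone held the ETS motif, at bases 146 to 141 on the other strand. Of 35116 promoter windows of this length, 6.57% hold the AP-1 motif, 10.7% the TATA box, 5.21% the κB motif and 19.5% the ETS motif. A match is a description of the letters and says nothing about binding in these cells.

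Of the 10 genes, MMP7, MMP9, MMP14 and TIMP1 exceeded background clearly on every array, and MMP1 on the 4 IL-1β arrays alone. MMP13 was well above background on 2 arrays, MMP2 and MMP10 on 1 each, and MMP3 and TIMP3 on none. All signals are given here in scaled units, that is, the background-subtracted signal after each array was brought to the same 75th percentile.

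**Figure D1:**
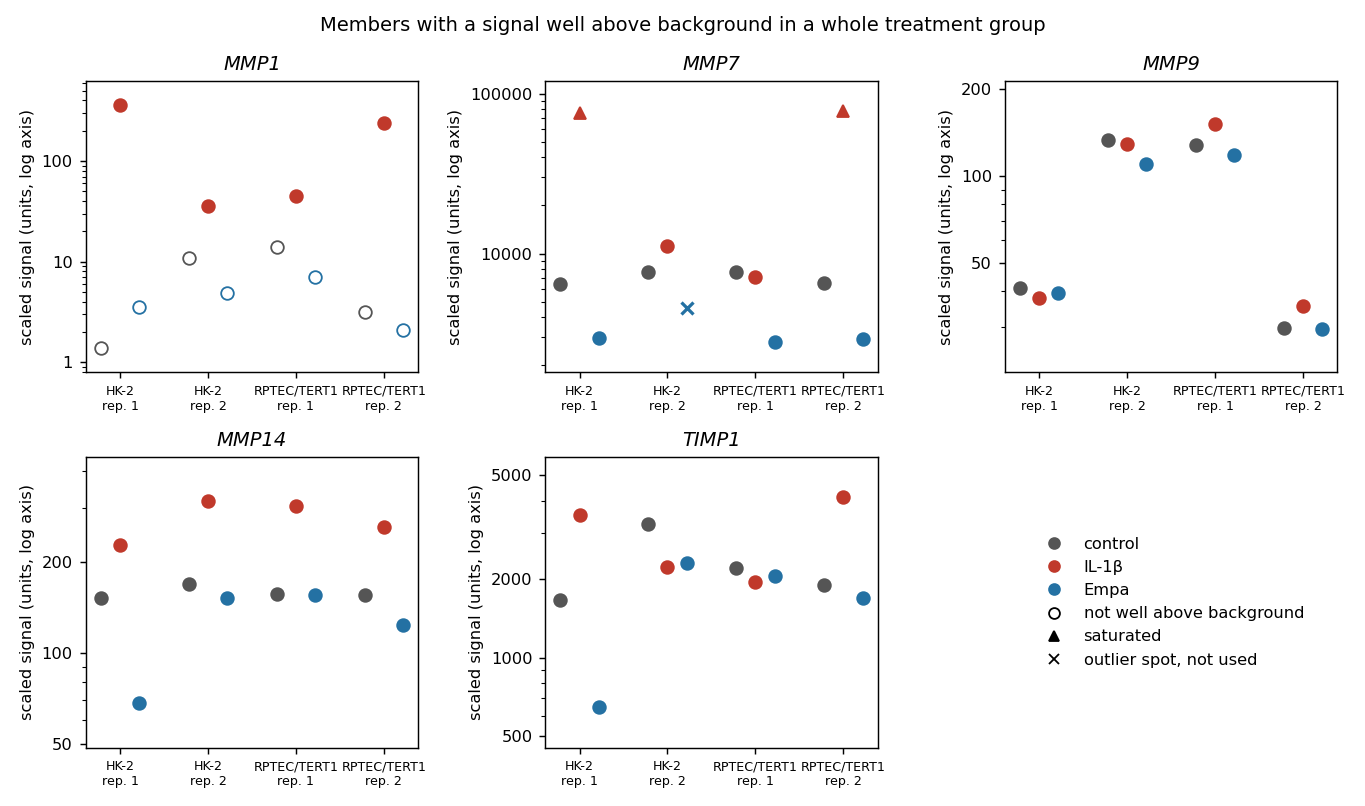
Scaled signal (units, log axis) of MMP1, MMP7, MMP9, MMP14 and TIMP1 on each of the 12 arrays, by slide, with control, IL-1β and Empa side by side. Open circles are not well above background, triangles are saturated, and the cross is the MMP7 outlier spot that was left out. MMP1 is well above background only with IL-1β, and MMP14 is highest with IL-1β on each slide.

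MMP1 encodes interstitial collagenase, which makes the first cut in fibrillar collagen. In control cells its signal was not well above background on any slide, at 1.37 units in HK-2 replicate 1, 10.9 in HK-2 replicate 2, 14.0 in RPTEC/TERT1 replicate 1 and 3.16 in RPTEC/TERT1 replicate 2. With IL-1β it was 362, 35.5, 45.0 and 239 units in the same order, well above background on all 4 slides. The IL-1β arrays did not overlap with the controls. MMP1 was well above background on the IL-1β arrays alone, and the share of all genes with such a separation was not counted. Nothing is therefore read from the separation. The IL-1β signals were highest on the slides of HK-2 replicate 1 and RPTEC/TERT1 replicate 2. Because the controls give no measured level, each fold is a nominal lower bound. It was taken against the lowest signal well above background on the control array, or the control signal itself where that was higher. That lowest signal comes from any probe of the array, and another probe can miss the mark at a higher signal. On HK-2 control replicate 1 it was 7.51 units, while MMP2 at 14.4 units was not well above background. By this bound, IL-1β raised MMP1 at least 48.3-fold on the slide of HK-2 replicate 1. On that of RPTEC/TERT1 replicate 2 the rise was at least 28.9-fold. It was at least 3.26-fold higher in HK-2 replicate 2 and at least 3.21-fold higher in RPTEC/TERT1 replicate 1. Over the 4 slides the bound was at least 10.99-fold. MMP1 entered the limma comparison through its IL-1β arrays alone and so had to differ. Its fitted log2 difference of 4.42 (SE 0.97, adjusted p = 0.0205 by limma) rests on control signals near background and is given as a description. The fit did not pass without the slide as a block (adjusted p = 0.241), within the slides of either scan day (log2 difference 4.86 and 3.97, adjusted p = 0.384 and 0.233) and without the control or the IL-1β array of HK-2 replicate 1 or of RPTEC/TERT1 replicate 2, each left out alone (adjusted p = 0.0532 to 0.0774). The probe is spotted 10 times, and with IL-1β the spots of an array varied by a coefficient of variation of 6.12% to 13.7%. On the control array of RPTEC/TERT1 replicate 1, 5 of the 10 spots were marked as well above background, against 1 in HK-2 replicate 2 and 0 on the other control arrays, and 2 spots of the HK-2 replicate 1 control were outliers.

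With Empa MMP1 stayed not well above background, at 3.56, 4.86, 6.99 and 2.11 units. Neither array of a slide measured it, so no fold is given.

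MMP14 encodes a membrane-anchored MMP that cuts collagen at the cell surface and activates the proenzyme of MMP2. Its control signal was even over the slides, at 151 units in HK-2 replicate 1, 169 in HK-2 replicate 2, 157 in RPTEC/TERT1 replicate 1 and 155 in RPTEC/TERT1 replicate 2. With IL-1β it was 228, 317, 305 and 261 units in the same order. Every IL-1β array lay above every control array, though the share of all genes with such a separation was not counted. The fold was 1.51, 1.87, 1.94 and 1.69, which gave a log2 difference of 0.80 over the 4 slides (SE 0.19, 95% confidence interval 0.36 to 1.24, adjusted p = 0.0300 by limma). The call was lost when any 1 of the control or IL-1β arrays other than HK-2 control replicate 1 was left out (log2 difference 0.71 to 0.83, adjusted p = 0.0571 to 0.0930), without the slide as a block (adjusted p = 0.563), and within the slides of either scan day (log2 difference 0.77 and 0.83, adjusted p = 0.661 and 0.247).

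With Empa MMP14 was 68.4, 152, 155 and 124 units. It was below the control of its slide on 4 of 4 slides, by 2.21-fold in HK-2 replicate 1, 1.12-fold in HK-2 replicate 2, 1.01-fold in RPTEC/TERT1 replicate 1 and 1.25-fold in RPTEC/TERT1 replicate 2. The log2 difference of -0.41 did not pass (SE 0.19, 95% confidence interval -0.85 to 0.03, adjusted p = 0.426 by limma), and it was -0.20 without HK-2 Empa replicate 1 and -0.25 without HK-2 control replicate 1.

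MMP7 encodes matrilysin, a small secreted MMP made by epithelium that cuts matrix, cell adhesion proteins and other MMPs. In control cells it was 6490, 7666, 7710 and 6560 units in the order of slides given above. The probe was saturated on the IL-1β arrays of HK-2 replicate 1 (75924 units) and of RPTEC/TERT1 replicate 2 (78123 units), which is at least 11.7-fold and at least 11.9-fold above control. In HK-2 replicate 2 it was 11123 units, 1.45-fold above control, and in RPTEC/TERT1 replicate 1 it was 7133 units, 1.08-fold below control. The slides thus differed in the size of the IL-1β difference, and each line label held 1 slide of either kind. No test of the difference between the slides was made.

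With Empa MMP7 was 2943 units in HK-2 replicate 1, 2786 in RPTEC/TERT1 replicate 1 and 2903 in RPTEC/TERT1 replicate 2, which is 2.21-fold, 2.77-fold and 2.26-fold below control. The MMP7 spot of the Empa array of HK-2 replicate 2 was marked as an outlier and was not used. Its own signal, 4553 units, would be 1.68-fold below control. All Empa arrays lay below all control arrays, with or without this spot. The share of all genes with such a separation was not counted, so nothing is read from it. Because a value was required on all 12 arrays, MMP7 is not in the main comparison. With the outlier spot kept, the log2 difference with Empa was -1.13 (SE 0.66, adjusted p = 0.503 by limma). With the outlier array treated as missing for the probe, it was -1.49 (SE 0.73, adjusted p = 0.450 by limma). That is lower than the difference on each measured slide (-1.14, -1.47 and -1.18). With an Empa array missing, the estimate also takes in the IL-1β values of the slides, of which 2 were saturated. The SE of a probe in these fits pools the spread of both treatments over the slides, saturated IL-1β arrays included. With IL-1β the fitted difference, from values of which 2 were saturated, was at least 1.89 on the log2 scale in both fits, and no test is read from it.

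MMP9 encodes gelatinase B, which cuts denatured collagen and basement membrane collagen. Its 10 spots gave control signals of 41.1, 133, 128 and 29.8 units in the order of slides given above. With IL-1β the signals were 37.8, 129, 152 and 35.6 units, and with Empa 39.4, 110, 118 and 29.6 units. All arrays of HK-2 replicate 1 and RPTEC/TERT1 replicate 2 lay between 29.6 and 41.1 units and all arrays of the other two slides between 110 and 152 units, so the slides differed more than the treatments. The log2 difference was 0.08 with IL-1β (SE 0.14, 95% confidence interval -0.24 to 0.40, adjusted p = 0.746 by limma) and -0.12 with Empa (SE 0.14, 95% confidence interval -0.44 to 0.20, adjusted p = 0.730). The intervals leave room for no more than 0.44 on the log2 scale in either direction.

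TIMP1 encodes a secreted inhibitor of most MMPs and TIMP3 an inhibitor bound to the matrix. TIMP1 in control cells was 1669, 3254, 2196 and 1896 units in the order of slides given above. With IL-1β it was 3507, 2216, 1946 and 4127 units. It was 2.10-fold above control in HK-2 replicate 1 and 2.18-fold above in RPTEC/TERT1 replicate 2, but 1.47-fold below control in HK-2 replicate 2 and 1.13-fold below in RPTEC/TERT1 replicate 1. The slides with TIMP1 above control were the slides on which MMP7 was saturated. The log2 difference over the 4 slides was 0.37 (SE 0.39, 95% confidence interval -0.52 to 1.25, adjusted p = 0.590 by limma). It was between -0.0092 and 0.18 without HK-2 IL-1β replicate 1 or without the control or the IL-1β array of RPTEC/TERT1 replicate 2, each left out alone, and 0.62 and 0.68 without the IL-1β array of RPTEC/TERT1 replicate 1 and of HK-2 replicate 2.

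With Empa TIMP1 was 644, 2313, 2055 and 1687 units, below the control of its slide on 4 of 4 slides. The fold below control was 2.59 in HK-2 replicate 1, 1.41 in HK-2 replicate 2, 1.07 in RPTEC/TERT1 replicate 1 and 1.12 in RPTEC/TERT1 replicate 2. The log2 difference was -0.53 (SE 0.39, 95% confidence interval -1.42 to 0.35, adjusted p = 0.580 by limma), and it was -0.13 without HK-2 Empa replicate 1. The Empa array of HK-2 replicate 1 held the lowest TIMP1 and the lowest MMP14 signal of all 12 arrays.

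**Figure D2:**
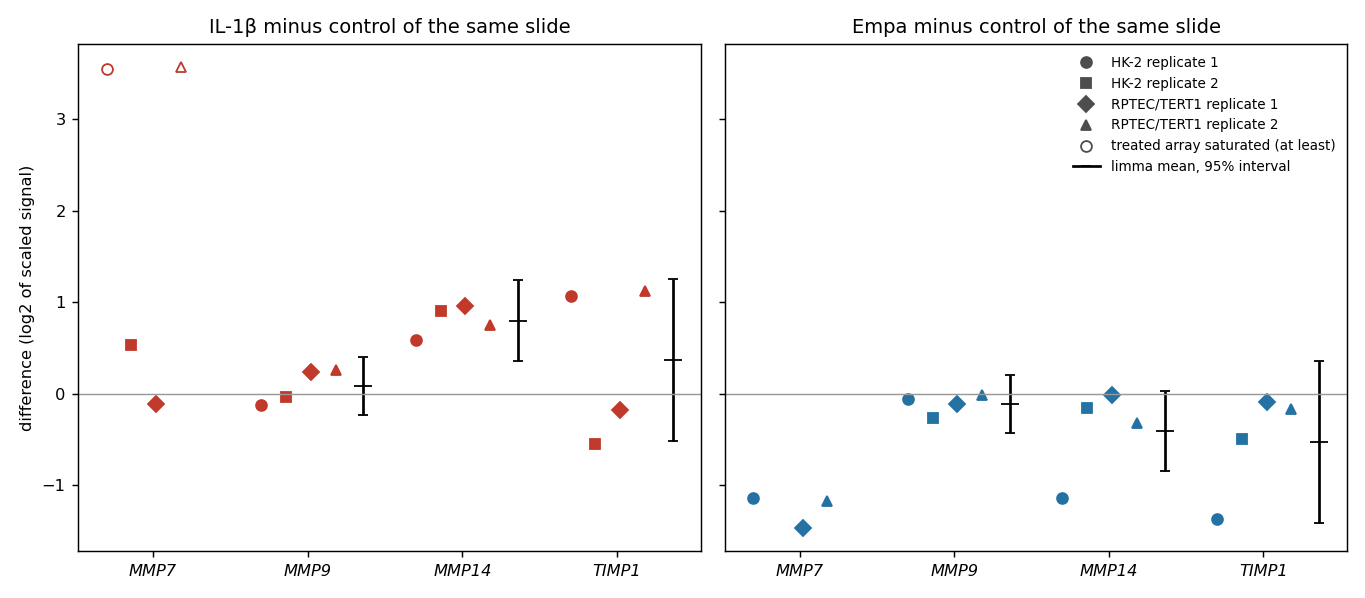
Difference between treated and control array of the same slide (log2 of scaled signal) for MMP7, MMP9, MMP14 and TIMP1, with IL-1β on the left and Empa on the right. Symbols mark the 4 slides, open symbols a saturated IL-1β array (at least), and black bars the limma mean with its 95% confidence interval, which MMP7 lacks because it is not in the main comparison. Only the interval of MMP14 with IL-1β (0.36 to 1.24) lies on one side of 0.

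MMP2 (gelatinase A), MMP3 and MMP10 (stromelysins) and MMP13 (a collagenase) were at or near background. MMP2 was 36.1 units with IL-1β in HK-2 replicate 2, at least 4.43-fold above control, and between -1.88 and 14.9 units on the remaining arrays, none of them well above background. MMP10 was 24.6 units with IL-1β in HK-2 replicate 1, at least 3.28-fold above control, and at most 10.6 units elsewhere. MMP13 was well above background with Empa alone, at 32.0 units in HK-2 replicate 2 (at least 3.93-fold above control) and 40.6 units in RPTEC/TERT1 replicate 2 (at least 4.90-fold), while the other two Empa arrays were not well above background. MMP3 lay between -6.44 and -0.82 units and TIMP3 between -2.07 and 6.01 units over all 12 arrays. The folds of MMP2, MMP10 and MMP13 are nominal bounds, as for MMP1. Each of these 5 probes has 1 spot per array, so a signal on 1 array has no repeat within that array. No level, and no absence of the transcripts, can be read from signals of this size.

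**Figure D3:**
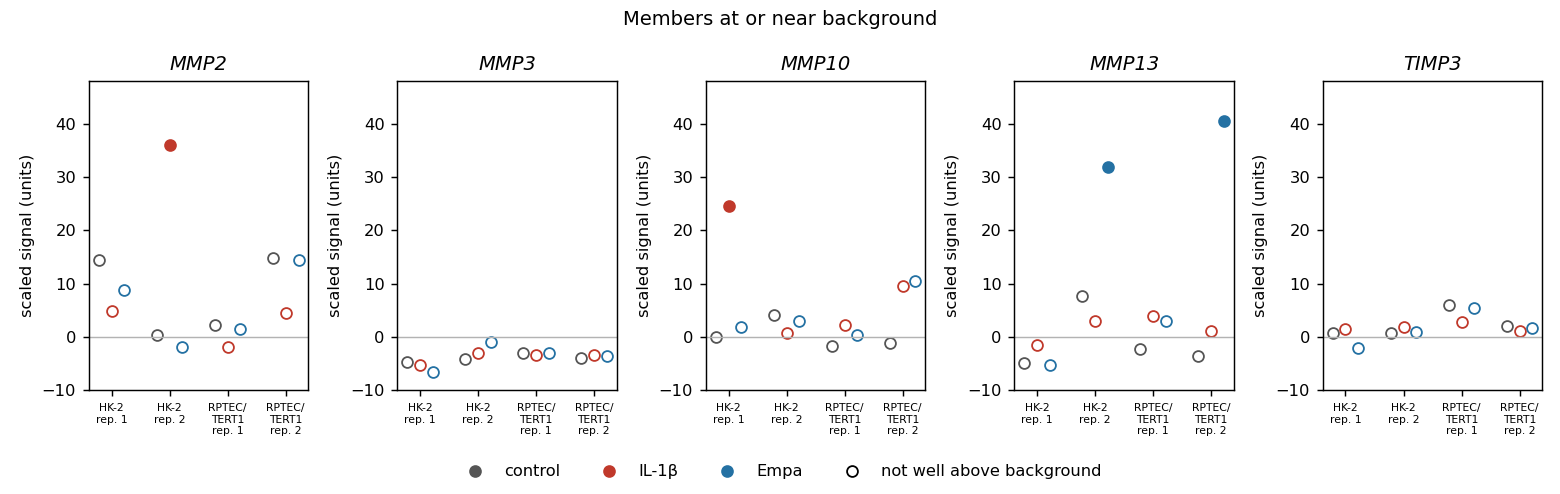
Scaled signal (units) of MMP2, MMP3, MMP10, MMP13 and TIMP3 on each of the 12 arrays, by slide. Filled circles are well above background, which holds for 1 IL-1β array each of MMP2 and MMP10 and for 2 Empa arrays of MMP13, and open circles are not.

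In limma over the 4 slides, 4 of the 10 genes could be tested (MMP1, MMP9, MMP14 and TIMP1). IL-1β changed 2 of the 4, MMP1 and MMP14, both higher, where 12.5% of all 15717 genes tested were called in either direction and 4.73% as higher. Since MMP1 had to differ, its count adds nothing, and MMP14 is the remaining call among 3 genes. The 1961 genes called for IL-1β were 744 higher and 1217 lower (37.9% higher), against 929 and 996 (48.3% higher) after background correction by normexp and quantile normalization, and MMP1 and MMP14 were called as higher under both. Empa changed 0 of the 4 genes, where 0.00636% of all genes were called (1 gene, DHRS2, named after its values were seen, with 1894 genes at an unadjusted p under 0.05), and the lowest unadjusted p among the 4 was that of MMP14 (0.0630). The signal was below control with Empa on each slide for MMP9, MMP14 and TIMP1, as for 13.7% of all genes tested, and above control with IL-1β on each slide for MMP1 and MMP14, as for 15.6% of all genes. All comparisons of IL-1β and of Empa share the same control arrays.

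The IL-1β and Empa effects were also compared between the arrays labelled RPTEC/TERT1 and HK-2. For both effects 0 of the 4 genes passed, as did 0% of all genes (0 of 15717 each by limma, with 280 and 161 at an unadjusted p under 0.05). By the correlations between control arrays, each label holds 1 slide of either kind. A difference between the kinds of slide falls within the labels here, so nothing about the lines is read from these counts. For MMP14 the IL-1β effect differed by 0.11 on the log2 scale (95% confidence interval -0.87 to 1.08) and for TIMP1 by 0.22 (95% confidence interval -1.76 to 2.19), so large differences between the labels remain possible.

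Genes that act with the MMPs and TIMPs were taken from 7 lists with 97 genes, of which 65 were tested. IL-1β changed 22 of the 65 (33.8%), 14 higher and 8 lower, where 12.5% of all genes tested were called, 4.73% as higher and 7.74% as lower. The lists were chosen with earlier results known, so nothing is read from this. Empa changed 0 of 65, where 1 of all 15717 genes tested was called. At an unadjusted p under 0.05 by limma were 11 of the 65 and 1894 of the 15717, and nothing is read from these counts either. All log2 differences below are over the 4 slides, and the median of all genes was -0.10 with IL-1β and -0.02 with Empa.

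Among the other MMPs, 8 of 15 were tested, 0 were called higher and 2 lower, with a median of -0.20. MMP11 (stromelysin-3) was called lower, but it was well above background on 3 control arrays, 3 Empa arrays and no IL-1β array. It entered the comparison without any IL-1β array and so had to differ, and no fold is given. MMP24, a membrane-anchored MMP, fell by 0.86 on the log2 scale (SE 0.18, adjusted p = 0.0179). MMP24 was below control on 4 of 4 slides, in the opposite direction to MMP14. Among the other inhibitors 4 of 8 were tested and 1 rose. TFPI2, a serine protease inhibitor of the extracellular matrix, rose by 3.45 (SE 0.51, adjusted p = 0.00372), above control on 4 of 4 slides.

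Of 14 tested ADAM and ADAMTS proteases, 2 rose and 2 fell, with a median of 0.09. ADAMTS9 (2.74, adjusted p = 0.000538 by limma) and ADAMTS1 (1.41, adjusted p = 0.0485, just under the threshold), which cut proteoglycans, rose. ADAMTS13 (-1.66), which cuts von Willebrand factor, and ADAMTS3 (-0.74), which processes procollagen, fell. VCAN, which encodes versican, a proteoglycan cut by ADAMTS9 and ADAMTS1, fell by 1.89 on the log2 scale (adjusted p = 0.00640 by limma).

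Of 4 tested genes of plasminogen activation, which feeds the activation of MMP proenzymes, 1 rose, with a median of 1.96. PLAT, tissue plasminogen activator, rose by 3.62 (SE 0.26, adjusted p = 0.000212 by limma) and was well above background on 2 of 4 control arrays, so its size depends in part on signals near background. It was well above background on 4 of 4 IL-1β arrays and 2 of 4 Empa arrays. Whether PLAT entered the comparison through its IL-1β arrays alone was not determined, so its p is given as a description. Among 6 tested activators and binding partners of MMPs 1 rose, with a median of 0.02. It was LCN2 (lipocalin 2), which forms a complex with MMP9 protein, at 7.13 (SE 1.83, adjusted p = 0.0361 by limma), again with 2 of 4 control arrays well above background. LCN2 was well above background on 4 of 4 IL-1β arrays and 2 of 4 Empa arrays, so its p is a description, as for PLAT. Its within-slide differences ran from 2.72 to 11.8 on the log2 scale.

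Of 18 tested matrix substrates, 6 rose and 3 fell, with a median of 0.18. LAMB3 (2.44, adjusted p = 0.00345 by limma), a chain of an epithelial laminin, rose, and COL4A3, a collagen of basement membrane, fell by 2.82 (adjusted p = 0.00857), with 2 of 4 IL-1β arrays well above background. Of 11 tested AP-1 and ETS factors, which are known to act on MMP promoters, 3 rose and 1 fell, with a median of 0.55. ETS1 (1.76), FOSL1 (1.60) and FOSL2 (0.55) rose. FOS was called lower, but it was well above background on 1 of 4 control arrays and on no IL-1β array. FOS entered the comparison through its Empa arrays, of which 3 were well above background. No fold is given, because its control and IL-1β signals lay mostly near background.

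**Figure D4:**
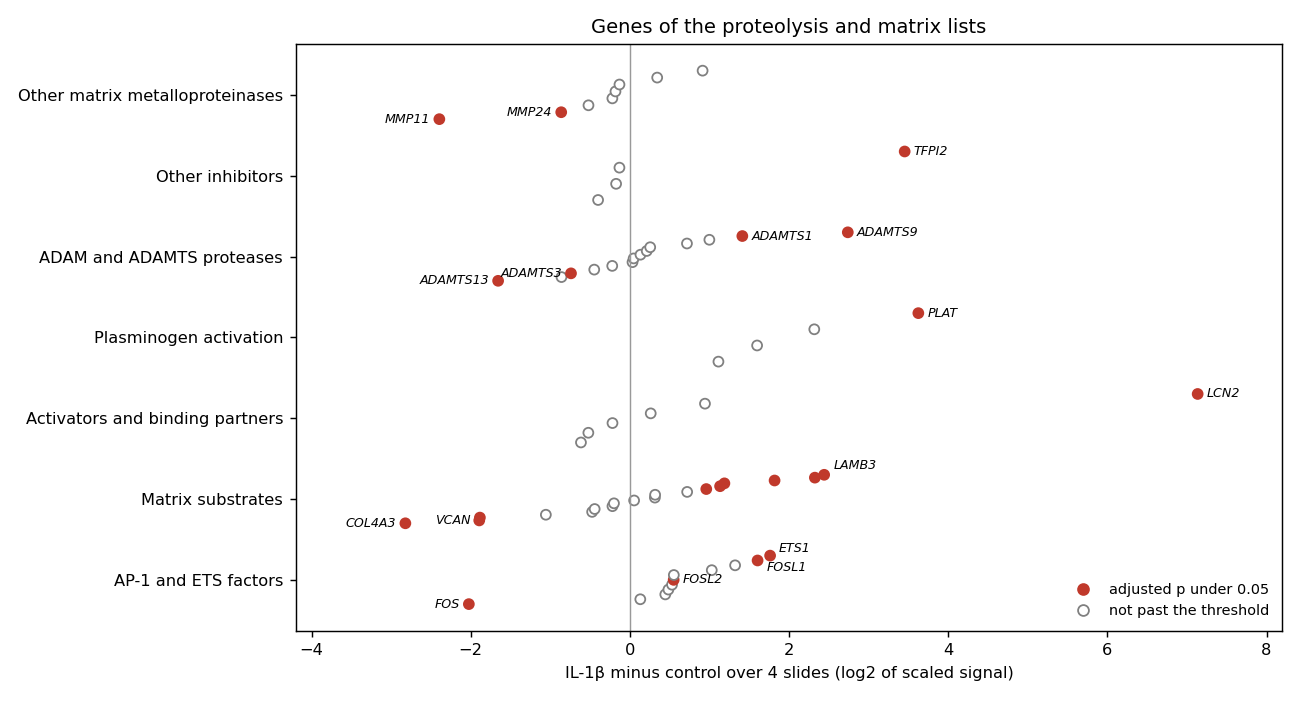
Log2 difference between IL-1β and control over the 4 slides for the 65 tested genes of the 7 lists, 1 row per list and 1 circle per gene. Filled circles are past an adjusted p of 0.05 by limma (14 higher, 8 lower), open circles are not, and up to 4 called genes of a list are named, from MMP11 and COL4A3 on the left to LCN2 on the right.

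The genes most like each tested gene over the 12 arrays were taken by Pearson's r of the log2 values, as a description with no test. They were NETO1 (0.985) and IRAK2 (0.980) for MMP1, LAMC3 (0.994) and NXPH4 (0.993) for MMP9, a transcript known by an Ensembl identifier (0.972) and AMIGO2 (0.942) for MMP14, and a probe without a gene name (0.980) and PI4K2A (0.975) for TIMP1. The arrays of a slide share its level, which enters each of these values.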

How the data were processed

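The authors read the arrays with Agilent's Feature Extraction (version 9.5.3.1), and the intensities they deposited are background-subtracted signals per spot without normalization between arrays, with marks for outlier, saturated and well-above-background spots. The authors also deposited a table of log2 values, described as quantile-normalized, which was used as an alternative. For the array method the study refers to an earlier publication.

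Control spots and outlier spots were left out, spots of a probe were averaged, arrays were scaled to their 75th percentile and to a common level, and values were raised to at least 1 unit before log2. Between 11.5% and 16.2% of the spots of an array were at or below 0. All 10 genes were matched to RefSeq by accession. One probe per gene was kept, the brightest of those that both arrays of some group (of 6) showed well above background, which gave 15717 genes. The model was limma 3.58.1 (R 4.3.3) over all 12 arrays, with the slide as a block and 1 effect per treatment (6 residual degrees of freedom; 4 with the line labels), with Benjamini-Hochberg adjustment and a threshold of 0.05. The arrays of a slide deviated together from their group means (r from 0.592 to 0.906). With 2 arrays per group, the deviations on the 2 slides of a label mirror each other. Each label holds 1 slide of either kind, so these values cannot tell a shared slide from the difference between the kinds. Arrays were paired because each slide carries all 3 conditions for 1 label and replicate number. The replicate-1 slides were scanned on another day than the replicate-2 slides. The number of arrays limits the precision.

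The genes and lists were chosen with earlier results of these data known. Named were all 10 genes, per list at most the 4 called genes with the largest change, the 2 genes most like each tested gene, the response genes and the markers. A gene that this rule takes in is not reported here. The alternatives were no block, quantile normalization, normexp with an offset of 50, the authors' table, no filter, a filter on all 12 arrays, every probe, outlier spots kept, a floor of 5 units, each scan day, and each array left out. The treatment of outlier arrays as missing was added after seeing the data. The fit was tested on simulated data. Figures were drawn with matplotlib 3.10.9.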

Additional observations from a re-analysis of the deposited data

Results flagged for a closer look

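The IL-1β difference of MMP9 had opposite signs on the slides of the line labels. It was -0.12 and -0.04 (log2) on the slides labelled HK-2 and 0.24 and 0.25 on those labelled RPTEC/TERT1, which gives a difference between the labels of 0.326. A test of this difference did not pass (95% confidence interval -0.42 to 1.08, adjusted p = 1.00 by limma), and the 10 spots of the MMP9 probe varied by up to 23.2% within an array. Among the 7 sets of 4 within-slide differences of MMP9, MMP14, TIMP1 and MMP7 that were checked, none held a slide that stood apart by Dixon's criterion.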

How the results depend on the processing

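Without the replicate block, 7 genes were called for IL-1β, 0 of MMP1, MMP9, MMP14 and TIMP1, and 0 genes for Empa. The slides of a single scan day gave 0 genes and 0 of the 4 for IL-1β and 0 genes for Empa on either day. When each array was left out in turn, 782 (without HK-2 control replicate 1) to 2943 genes (without HK-2 Empa replicate 1) were called for IL-1β, 0 to 2 of the 4, and 0 to 1 gene for Empa. MMP1 lost its IL-1β call without HK-2 control replicate 1, HK-2 IL-1β replicate 1, RPTEC/TERT1 control replicate 2 or RPTEC/TERT1 IL-1β replicate 2 (adjusted p = 0.0532 to 0.0774 by limma), and lost it as well, like MMP14, without a filter on dim probes (0 of 9 called, adjusted p = 0.0755 and 0.0523). With a filter on all 12 arrays 1 of 3 was called, since MMP1 was not tested. For Empa, normexp, the authors' table, both filters and the floor of 5 units gave 0 genes in place of 1. MMP1 with IL-1β was 4.42 on the log2 scale, 1.45 with normexp, 1.06 in the authors' table and 3.50 to 5.22 with arrays left out. With Empa, MMP1, which was not well above background, turned from -0.34 to 0.19 on scan day 1 and ran from -1.23 to 0.25 with arrays left out. TIMP1 with IL-1β ran from -0.0092 (without HK-2 IL-1β replicate 1) to 0.68. No call of a difference between the line labels, and no Empa call of the 4 genes, arose under any alternative run. Scaling and floor set the values of dim probes. The cause of these changes was not tested, beyond the smaller number of arrays or genes.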
